A study of Zea mays with 5 samples.

Results

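CHH cytosines followed by A were described in 1 library of bisulfite-treated ChIP DNA, made from young Derivative 3-3 maize leaves. Derivative 3-3 carries a centromere formed de novo, per the series title. H stands for any base but G, so these sites read CAA, CAC or CAT. All listed CHH cytosines with A as the next base and at least 5 reads were taken, which gave 5594 of the 43778 cytosines of the deposited map (20.9% of the 26750 with at least 5 reads). The chromatin was digested with micrococcal nuclease and precipitated with a rabbit antiserum raised against peptides of maize CENH3, the histone H3 variant of active centromeres, before bisulfite turned unmethylated C into a base read as T. The levels therefore describe precipitated DNA of Derivative 3-3. Unprecipitated DNA and control plants were not among the methylation data, and the 4 RNA libraries of the series (Derivative 3-3 and control, young leaf and seedling) were not analysed here. The map covers chromosome 9 from position 4301438 to position 4587776, a span of 286339 bp in B73 RefGen_v3 coordinates as the file gives them. Which genes or transposons lie there was not analysed here. With 1 library there is no replicate, so no test was made. The values are methylated reads over all reads with Wilson 95% intervals, which cover counting error only.

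Most CHH cytosines have no cytosine of the same kind opposite them, so their methylation cannot be copied from the parental strand after replication. Plants set it anew, through RNA-directed DNA methylation with a DRM methyltransferase or through chromomethylases, enzymes that bind methylated histone H3. In Arabidopsis the chromomethylase CMT2 is known to act more often on CHH sites in which A or T follows the cytosine and A is the third base. Which enzymes acted on the maize sites described here was not tested. CG and CHG methylation are kept up by other enzymes, MET1 and CMT3 in Arabidopsis, and are dense in maize heterochromatin.

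The stretches below are shown because the base after CA went with the level. Each is given 5′ to 3′ on the strand of its cytosine, which stands in capitals with its A, with the 10 bases on either side. The bases were put together from the rows of the map itself, which state the cytosine, the base after it and the G of a CHG site on both strands, and a base stated by no row is an n. First come some of the 8 CAAG sites at 50% methylation or more, with the methylated reads of all reads. Those shown all have gc before the CA, which not all of the 8 have.
chr9:4446496-4446516, forward strand, 11 of 14 reads: gnncttgtgcCAagtgnnnnn
chr9:4537078-4537098, reverse strand, 7 of 7 reads: gnncanaggcCAagnnntgnn
chr9:4560481-4560501, reverse strand, 7 of 9 reads: cagagcctgcCAagagggnnn
chr9:4573179-4573199, forward strand, 4 of 7 reads: nctnnnnagcCAagnnnnctg
Next come the 3 CATG sites with the most reads.
chr9:4564171-4564191, forward strand, 0 of 24 reads: ggcccgcgggCAtggaggntg
chr9:4469187-4469207, reverse strand, 0 of 22 reads: gggnnncgctCAtgctncann
chr9:4382740-4382760, reverse strand, 0 of 20 reads: ntggnaggnnCAtggcagaga
These CAAG sites were picked from those at 50% or more and these CATG sites for their depth, so the stretches illustrate the words and are no comparison. The 3 deepest CAAG sites, at 22 reads each, held 0, 0 and 1 methylated reads, so a CAAG site was not methylated as such.

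Cytosines followed by A carried more than their share of the CHH methylated reads, 1488, against 1174 at all other CHH cytosines. Their level was 3.24% (95% interval 3.09 to 3.41, 1488 of 45879 reads), against 1.38% (1.31 to 1.46, 1174 of 84868 reads) at the 10321 other CHH cytosines. The difference was 1.86 percentage points (1.68 to 2.04), a ratio of 2.34. Sites followed by T stood at 1.81% and sites followed by C at 0.938%. Median depth was 7 reads for sites followed by A and for the other CHH cytosines. Without cytosines at 50% or more the levels were 2.69% for sites followed by A and 1.24% for the others. Sites followed by A with 3 or 4 reads, just outside the coverage minimum, stood at 2.92% and 2.98%, and those with 5 or 6 reads, just inside it, at 2.22% and 3.38%.

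Most individual sites followed by A showed no methylation. Of the 5594 sites, 4862 (86.9%) had 0 methylated reads, and 93.5% of the other CHH cytosines did. A site was called methylated at 2 or more methylated reads and a level of 20% or more, which held for 345 sites followed by A (6.17%, 5.57 to 6.83) and for 2.59% of the other CHH cytosines. A level of 50% or more, called high here, was reached by 44 sites followed by A (0.787%, 0.586 to 1.05), against 0.242% of the others. The 44 high sites held 17.9% of the methylated reads, and 12 of them were methylated in every read. At 5 to 9 reads lay 34 of the 44 high sites and 4170 of all 5594 sites, so the high sites were about as shallow as the rest. Among sites with at least 10 reads, 2 reached 80%. One lay at position 4583085 on the forward strand with 20 of 20 reads methylated (83.9 to 100%), and the other at position 4572353 on the forward strand with 8 of 10 (49.0 to 94.3%). The first had CG at 97.7% within 100 bp, and the second had CHG at 54.5% and no CG cytosine with 5 reads in that distance.
chr9:4583075-4583095, forward strand: agnnccgctgCAnccgnagct
chr9:4572343-4572363, forward strand: nccacannncCAcctnnnnnc

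The counts of methylated reads were not spread evenly. A single methylated read was seen at 5.15% of the sites followed by A, 2 reads at 5.81% (325 sites), 3 reads at 0.661% (37) and 4 reads at 0.858% (48). At other CHH cytosines 1 read was seen at 3.06%, 2 at 2.66% (275), 3 at 0.397% (41) and 4 at 0.242% (25). Counts of 2 were thus about as frequent as counts of 1 and far more frequent than counts of 3 in both sets, and 2 methylated reads were not read as 2 molecules. With at least 3 methylated reads and 30%, 97 sites followed by A (1.73%) were methylated, against 0.504% of the other CHH cytosines.

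**Figure D1:**
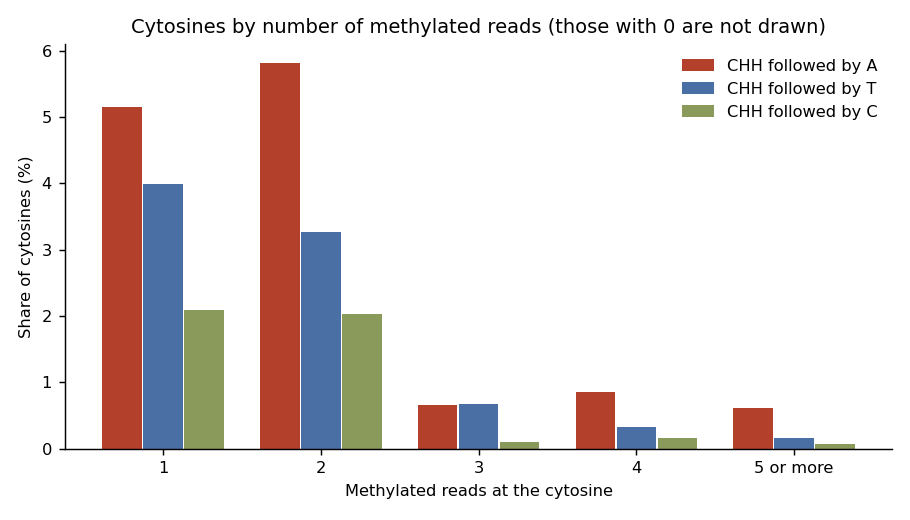
Share of CHH cytosines with at least 5 reads (y axis, percent) that had 1, 2, 3, 4, or 5 or more methylated reads (x axis), for sites followed by A (red), T (blue) and C (green). Sites followed by A have the tallest bar in each class but that of 3 reads, and the classes of 1 and 2 reads stand far above the rest.

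Within the sites followed by A, the level went with the third base. The map states the third base only in part, for 2285 of the 5594 sites (40.8%). A C in the third place is nearly always listed, since the C that must follow a CC cytosine was listed for 6474 of 6479 rows. The 1518 CAC sites had a level of 1.81% (1.59 to 2.06), against 3.77% (3.58 to 3.98) at the 4076 other sites followed by A, a difference of -1.97 percentage points (-2.27 to -1.65). An A or T in the third place is stated only where a G follows it with its opposite cytosine listed, so the sharpest comparison is between words that all end in G.

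CAAG sites were far more methylated than CATG or CACG sites. CAAG stood at 6.77% (5.98 to 7.67, 230 of 3395 reads, 390 sites), against 1.08% (0.781 to 1.51, 35 of 3226 reads, 377 sites) for CATG and 1.40% (0.995 to 1.95, 33 of 2365 reads, 280 sites) for CACG. CAAG exceeded CATG by 5.69 percentage points (4.79 to 6.64). Methylated sites made up 14.1% of CAAG sites (55 of 390) and 1.33% of CATG sites (5 of 377). High sites numbered 8 at CAAG and 0 at both CATG and CACG, where 377 and 280 sites were seen. Over all sites followed by A, 44 of 5594 (0.787%) were high, so these counts of 0 say little. For 31 of the 44 high sites the third base was not stated.

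Median CG methylation within 100 bp was 91.5% for CAAG sites, 93.0% for CATG sites and 91.9% for CACG sites, and median CHG methylation was 73.4%, 72.4% and 71.3%. Median depth was 8 reads for CAAG and CATG sites and 7 for CACG sites. CAAG exceeded CATG in each of the 13 windows of 10 kb that held at least 10 sites of both words. Its level there ran between 1% and 11.4% with a median of 7.48%, against 0 to 2.36% with a median of 0.495% for CATG. On the forward strand CAAG stood at 5.77% and CATG at 1.15%, and on the reverse strand at 7.58% and 1.02%.

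An A in the third place went with a higher level also where T followed the cytosine. CTAG stood at 4.72% (3.91 to 5.70, 261 sites) and CTTG at 0.840% (0.582 to 1.21, 401 sites), a difference of 3.88 percentage points (2.99 to 4.89). CAAG in turn exceeded CTAG by 2.05 percentage points (0.792 to 3.26). After CC, CCAG stood at 1.47%. Words with T or C as the third base lay closer together than CAAG, CTAG and CCAG did. CATG at 1.08% stood beside CTTG at 0.840% and CCTG at 0.610%, and CACG at 1.40% beside CTCG at 0.900% and CCCG at 1.01%. In both sets the word with A had the highest value, but its interval overlapped those of the other words. Over all CAC sites the level of 1.81% was above that of CTC sites, at 0.681% (0.553 to 0.838), and of CCC sites, at 0.778% (0.634 to 0.956). CATG reads the same on both strands, and in 131 cases both of its cytosines had at least 5 reads. None of these 131 pairs was methylated on both strands, 2 were on one, and 129 on neither. With 1.33% of CATG sites methylated, a pair methylated on both strands would be rare in any case. The count of 0 therefore says little about the 2 strands.

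**Figure D2:**
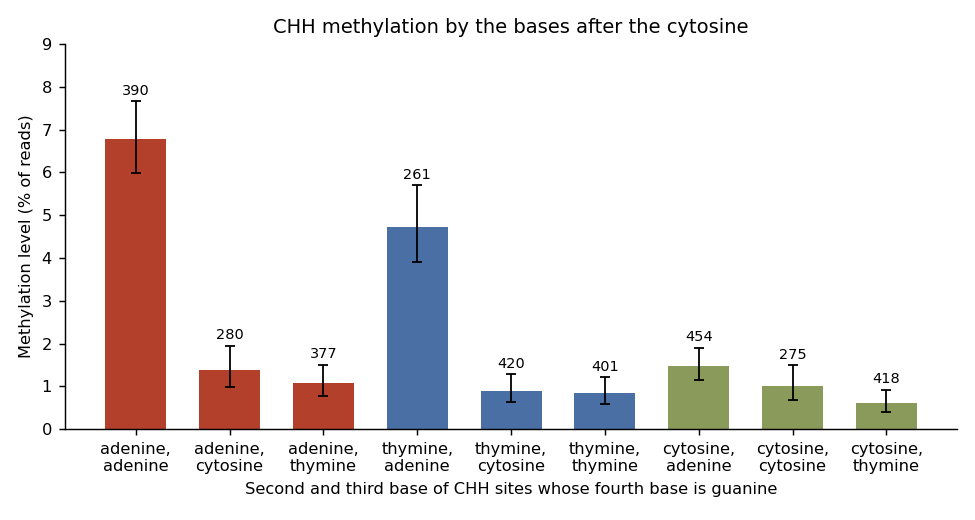
Methylation level (y axis, percent of reads) of CHH sites with guanine after them, by the next base and the base after that (x axis). Red, blue and green bars have adenine, thymine and cytosine next, error bars are Wilson 95% intervals and the number of sites stands above each bar. The bars with adenine as the third base reach 6.77% for CAAG and 4.72% for CTAG, and the other bars stay at or below 1.47%.

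Along the region the level of sites followed by A was highest in the first 40 kb. That part held 320 of the sites (5.72%) and 13.5% of their methylated reads. Their level was 8.93% there and at 2.95% in the rest, a difference of 5.98 percentage points (4.86 to 7.24). Other CHH cytosines stood at 3.21% there and at 1.31% in the rest. The gap between both kinds was 5.72 percentage points in the first 40 kb and 1.64 in the rest. The contrast of CAAG and CATG was not seen in the first 40 kb, where each had 13 sites and they stood at 8.51% and 8.70%. There the methylated CATG reads all lay in the window at 4321438 to 4331437, where 8 CATG sites stood at 14.3%. Of these, 6 lay in the 1 kb from 4327438, at 17.4%. In the windows from 4301438 and 4311438 CATG stood at 0%. The CATG value of the first 40 kb thus rested on few sites close together. In the rest CAAG stood at 6.73% and CATG at 0.862%. Of the methylated reads at sites followed by A in the first 40 kb, 57 lay within 172 bp, between 4327708 and 4327879. The 10 kb windows of that part stood, from left to right, at 6.42%, 6.18%, 14.1% and 9.09%, the first and last with under 50 sites. Other CHH cytosines in the same windows stood at 0%, 2.20%, 6.09% and 0.787%. In the first and last of them other CHH cytosines were thus below their 1.31% in the rest.

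Of the 27 windows of 10 kb with any site followed by A, 21 held at least 50. Their levels ran between 1.84% and 14.1% with a median of 2.97%. The 3 highest were 14.1% at 4321438 to 4331437 (11.7 to 16.9, 89 sites), 6.18% at 4311438 to 4321437 (4.92 to 7.73, 162 sites) and 5.06% at 4431438 to 4441437 (3.80 to 6.71, 107 sites). The 3 lowest were 1.84% at 4471438 to 4481437 (1.41 to 2.38, 347 sites), 1.90% at 4341438 to 4351437 (1.11 to 3.22, 110 sites) and 2.25% at 4541438 to 4551437 (1.68 to 3.01, 275 sites). Intervals of the 3 lowest windows overlapped each other, while that of the highest overlapped none of the other 20. Without its 6 high sites the highest window stood at 8.24%.

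The level of sites followed by A was above that of other CHH cytosines in 20 of these 21 windows, by a median of 1.63 percentage points. The exception was the window at 4491438 to 4501437, where sites followed by A stood at 2.77% and the others at 3.79%. CG was also low there, at 39.4%. Across the 21 windows the level of sites followed by A went with that of other CHH cytosines at a Spearman rho of 0.47, with CHG at 0.18 and with CG at -0.14. These windows share 1 library and its depth, and the correlations are a description.

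**Figure D3:**
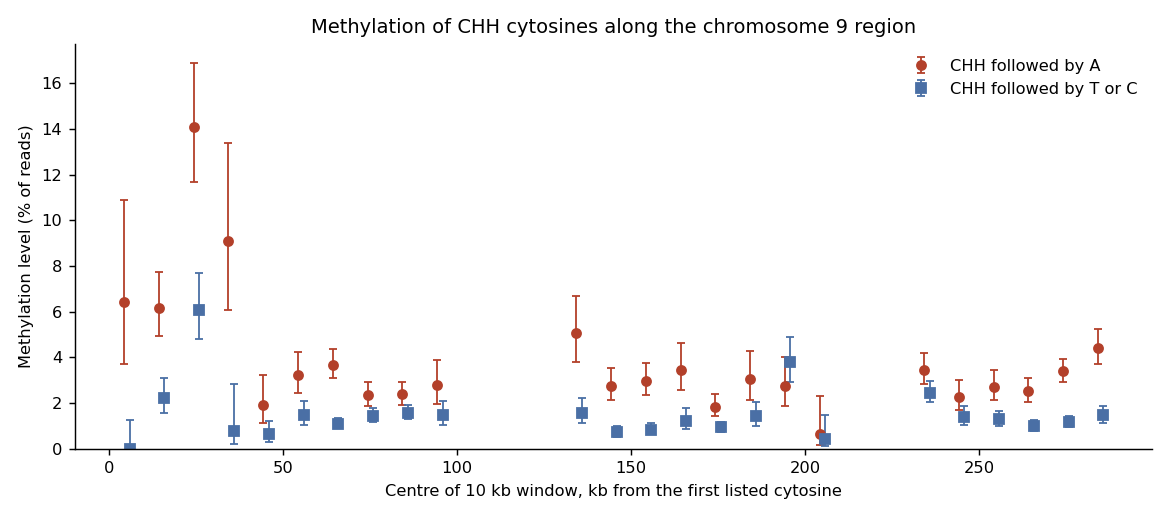
Methylation level (y axis, percent of reads) in windows of 10 kb with at least 20 sites followed by A, against the distance of the window's centre from the first listed cytosine (x axis, kb). Red circles are CHH sites followed by A, blue squares other CHH cytosines, and bars are Wilson 95% intervals. The red circles lie above the squares in nearly every window and reach 14.1% near the left end.

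At 1 kb, 163 bins held at least 10 sites followed by A. Their median level was 2.82%, 13 bins had no methylated read, and 7 reached 10%. The 3 highest were 17.6% at 4327438 to 4328437 (14.0 to 21.9, 48 sites), 16.1% at 4339438 to 4340437 (9.83 to 25.2, 12 sites) and 15.2% at 4536438 to 4537437 (10.9 to 20.8, 27 sites). Other CHH cytosines in these bins stood at 7.23%, 3.08% and 12.5%. The second bin rested on 14 methylated reads, 2 at each of 7 neighbouring sites, and 2 methylated reads were not read as 2 molecules.

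Methylated CA sites lay close to each other more often than sites followed by A did in general. Of the 345 methylated sites, 190 (55.1%, 49.8 to 60.2) had another methylated site followed by A within 100 bp, against 40.4% (39.1 to 41.7) of all 5594 sites and 39.2% of those with 0 methylated reads. Other CHH cytosines showed a like gap, with another methylated one of their kind near 49.8% (43.9 to 55.8) of their methylated sites and 33.6% (32.7 to 34.5) of all of them. On the same strand the shares were 45.8% of methylated sites and 28.1% of all sites. On the opposite strand they were 21.2% (17.2 to 25.8) and 17.6% (16.6 to 18.6), whose intervals overlap. Neighbours on the same strand can be covered by the same read, and in bisulfite data those on opposite strands cannot. Chained at gaps of up to 100 bp, 155 methylated sites stood alone, 41 chains held 2, and 25 chains held 3 or more, with 108 sites in all.

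The 5 chains with the most sites held 6 to 14 each. The longest ran over 172 bp between 4327708 and 4327879 with 14 methylated sites, 13 of them on the reverse strand. The 19 sites followed by A there had 57 of 157 reads methylated (36.3%, 29.2 to 44.1), and the 17 other CHH cytosines had 26 of 120 (21.7%). Of its reverse-strand sites, 4 in a row from 4327806 to 4327831 had 4 methylated of 11 reads each. The remaining chains began at 4537039 (8 sites over 68 bp), 4339925 (7 over 81 bp), 4532431 (6 over 146 bp) and 4363152 (6 over 84 bp). The level of sites followed by A in them was 35.7%, 18.2%, 20% and 26.2%, in that order. Other CHH cytosines in the same chains stood at 28.6%, 4.26%, 10.6% and 22.5%, so other CHH sites had methylated reads there as well, least so in the chain from 4339925. The conversion rate was not given, and whether single molecules were incompletely converted was not tested. CG within 100 bp of the 5 chains stood between 78.4% and 100%. In the chain from 4339925 each of the 7 methylated sites had 2 methylated reads, as did most of the 8 in that from 4537039. As above, 2 methylated reads were not read as 2 molecules.

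The reverse strand of the first 2 chains is shown to place these sites beside each other, 5′ to 3′, with the methylated CA sites of that strand in capitals. There are 13 of them in the first stretch and 6 in the second.
chr9:4327775-4327879, reverse strand: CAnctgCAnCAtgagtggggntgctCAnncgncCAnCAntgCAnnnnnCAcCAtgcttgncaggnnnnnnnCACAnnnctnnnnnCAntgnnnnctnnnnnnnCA
chr9:4537038-4537106, reverse strand: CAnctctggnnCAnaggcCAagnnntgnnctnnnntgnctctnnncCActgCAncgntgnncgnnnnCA

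Around the 44 high sites, the level of sites followed by A was highest within 25 bp on the same strand. At 1 to 25 bp on the same strand they stood at 10.02% (8.16 to 12.3, 93 sites), against 2.84% (2.68 to 3.01) around sites with 0 methylated reads. On the opposite strand at 1 to 25 bp they stood at 5.36% (3.22 to 8.80, 30 sites), against 3.09% (2.85 to 3.34) around sites with 0 methylated reads. The highest window decided much of this. Around the 38 high sites outside it, the levels at 1 to 25 bp were 6.12% (4.52 to 8.22) on the same strand and 5.69% (3.42 to 9.32) on the opposite strand. At 51 to 100 bp they were 3.66% and 3.61% without that window, against 7.55% and 6.68% with it. Farther out on the opposite strand, the level beyond 100 bp and up to 200 bp was 7.05% (5.59 to 8.85) around all 44 high sites and 3.23% (2.21 to 4.69) without that window. On the same strand it was 4.62% beyond 200 bp and up to 500 bp, and 4.46% from there up to 1000 bp, around all 44, and 3.12% and 3.19% without it.

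**Figure D4:**
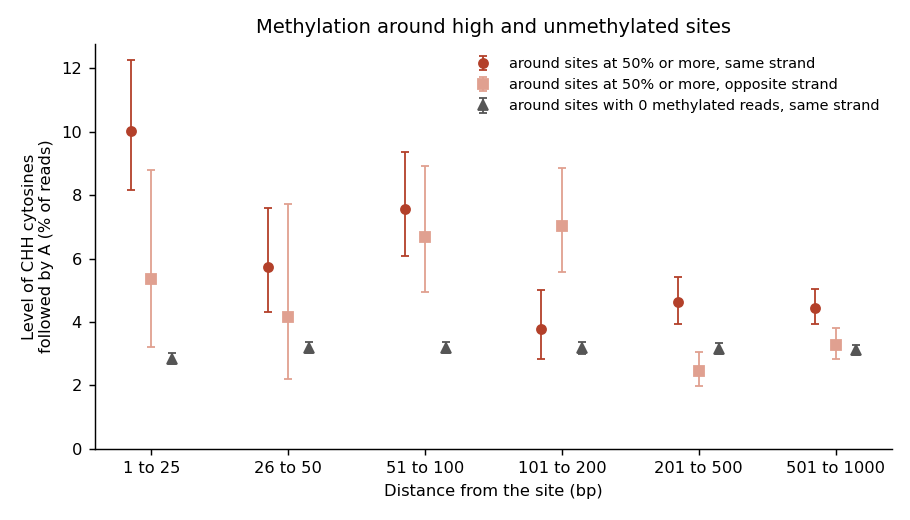
Methylation level of CHH sites followed by A (y axis, percent of reads) by distance (x axis, bp) from the 44 sites at 50% or more, on the same strand (dark red) and the opposite strand (light red), and from sites with 0 methylated reads on the same strand (grey). Bars are Wilson 95% intervals, and at 1 to 25 bp the dark red point stands at 10.02% and the grey one at 2.84%.

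The strands differed in level for sites followed by A. The forward strand stood at 2.84% (2.63 to 3.07, 2759 sites) and the reverse strand at 3.61% (3.38 to 3.85, 2835 sites), a difference of -0.76 percentage points (-1.09 to -0.44). For other CHH cytosines the forward strand stood at 1.37% and the reverse strand at 1.40%, a difference of -0.02 points (-0.18 to 0.13). Part of the difference at sites followed by A came from the window at 4321438 to 4331437, where the forward strand stood at 3.70% and the reverse strand at 21.9%. Without that window the difference was -0.47 points (-0.79 to -0.15), with 2.83% on the forward and 3.30% on the reverse strand. The reverse strand was higher in 15 of the 21 windows. Of the 44 high sites, 29 lay on the reverse strand.

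The level of CA sites was lowest where neighbouring CG cytosines were little methylated. With CG under 20% within 100 bp their level was 0.981% (0.605 to 1.59, 16 of 1631 reads, 210 sites). With CG between 20% and 80% it was 4.16% (3.67 to 4.73, 696 sites), and with CG at 80% or more 3.24% (3.06 to 3.42, 4468 sites). The level with CG at 80% or more exceeded that with CG under 20% by 2.26 percentage points (1.62 to 2.67). The level was thus not highest beside the most methylated CG, as it was lower by 0.93 points there than in the middle class (interval -1.52 to -0.40). Without high sites the middle class stood at 3.15% and the class at 80% or more at 2.72%. Of the 44 high sites, 11 lay in the first 40 kb. That part was not left out of this comparison, so position and neighbouring CG were not separated. CG under 20% was found near 0 of the 44 high sites and near 3.75% of all sites followed by A, so the count of 0 says little. In the lowest class sites followed by T stood at 0.146% (0.0400 to 0.530) and sites followed by C at 0.424% (0.181 to 0.990), at a median of 6 reads. Site by site the rank correlations were very small. Over 5242 sites followed by A, Spearman rho of the level was 0.0036 with CG and 0.020 with CHG within 100 bp. These values could show little. Of all sites followed by A, 86.9% were tied at 0 methylated reads, and 79.9% had CG at 80% or more nearby. A rank correlation also misses a level that is highest in the middle class. Median CG nearby was 91.9% for methylated sites and 92.0% for all sites followed by A.

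By CHG, the level of sites followed by A was 1.89% (1.41 to 2.52, 306 sites) with CHG under 20% within 100 bp, 3.24% (3.05 to 3.45) with CHG between 20% and 80%, and 3.48% (3.18 to 3.82) with CHG at 80% or more. The level with CHG at 80% or more exceeded that with CHG under 20% by 1.59 percentage points (0.895 to 2.17). This is less than the 2.26 points for CG, but the order turned within 50 bp, at 2.42 for CHG and 2.21 for CG, and with at least 10 reads, at 2.41 and 2.01. Both contexts were low around 198 sites, whose level was 0.898% (0.536 to 1.50). CHG was low but CG between 20% and 80% around 76 sites, whose level was 4.77% (3.36 to 6.73), against 0.941% (0.496 to 1.78) at other CHH cytosines in such places. Where CHG was low but CG at 80% or more, 25 sites followed by A stood at 0.667% (0.118 to 3.68, 1 of 150 reads). For other CHH cytosines the order was alike, at 0.275%, 1.96% and 1.37% in the rising CG classes. The share of methylated sites followed the same classes as the level, at 1.43% with CG under 20%, 9.05% in the middle class and 6.04% with CG at 80% or more.

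**Figure D5:**
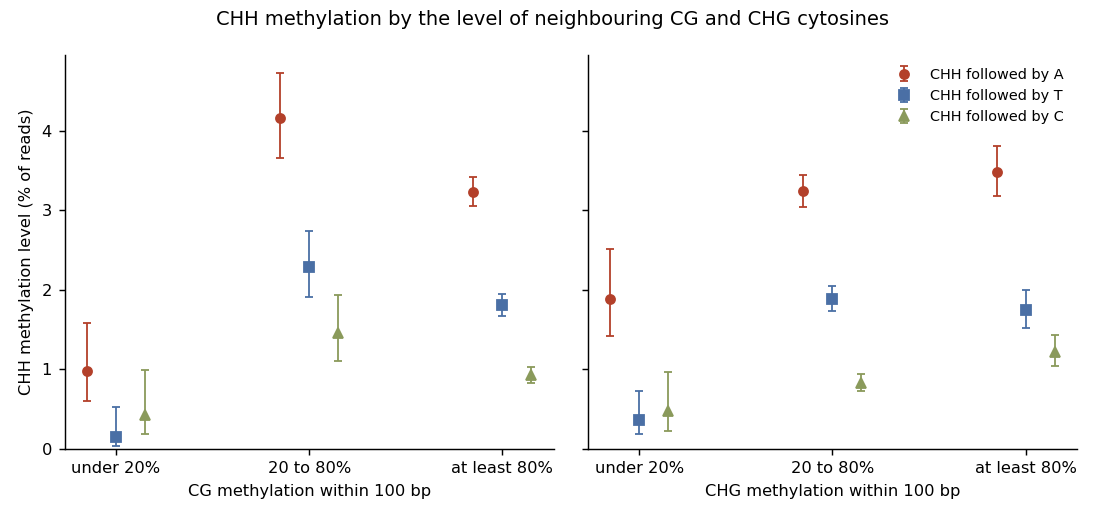
Methylation level (y axis, percent of reads) of CHH sites followed by A (red circles), T (blue squares) and C (green triangles), by the pooled CG (left) and CHG (right) methylation within 100 bp (x axis classes). Bars are Wilson 95% intervals, and red circles rise to 4.16% in the middle CG class, against 0.981% with CG under 20%.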

How the data were processed

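One bisulfite-ChIP library was analysed. The authors' deposited table gives, per the file headers, methylated and total read counts per cytosine, which are raw counts, and the methylation level as a fraction of 0 to 1. The level equalled methylated over total reads at every row within 1e-06. No cytosine with under 3 reads is listed. The submitters' processing notes name B73 RefGen_v3, BWA 0.6.1 and CASAVA. The methylation caller, treatment of duplicates and of repeats, the conversion rate and whether positions count from 0 or 1 were not given in the sources used here. A plant variant can change a site's context, which was not tested.

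Reads were pooled over cytosines with at least 5 reads (sites followed by A had 5 to 36, median 7). Windows were counted from the first listed position. Differences carry Newcombe 95% intervals. Reads are not independent molecules and neighbouring cytosines share them, so intervals are too narrow. Bases were assembled from the rows of both strands, with 0 conflicts. Functions were tested on simulated data. Software was matplotlib 3.10.9, scipy 1.17.1, pandas 2.3.3 and numpy 2.4.6 under Python 3.11.15.

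The members, classes and thresholds were chosen with earlier results of these data known, and the comparison of 4-letter words, the first 40 kb and the base before the cytosine were added after values were seen. Named were the 3 highest and lowest windows with at least 50 sites, the 3 highest bins with at least 10, sites with at least 10 reads and 80%, and the 5 chains with the most methylated sites. The other sequences shown were chosen after their values were seen. Alternatives were coverage minimums of 3 and 10, leaving out the 1% deepest cytosines, the highest window, the outermost 10 kb or high cytosines, single strands, unweighted means, other window sizes, radii and site thresholds.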

Additional observations from a re-analysis of the deposited data

How the results depend on the processing

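Of 91 values under alternatives, 61 stayed within the interval of the reported value and 30 moved out of it, and no difference between levels changed sign. The level of sites followed by A was 3.47% with at least 10 reads, 3.08% without the highest window, 2.69% without cytosines at 50% or more, 2.84% and 3.61% on the forward and reverse strand, and 2.95% without the first 40 kb. Its difference from other CHH cytosines in the same order of settings was 2.11 points with at least 10 reads, 1.44 without cytosines at 50% or more, 1.47 and 2.21 by strand, and 1.64 without the first 40 kb. The share with 0 methylated reads was 89.6% and 80.6% at minimums of 3 and 10 reads. A minimum of 3 reads gave 4.98% methylated and 1.81% high sites, and a site threshold of 3 methylated reads and 30% gave 1.73%. These follow from the reads per site by construction. The highest window stood at 10.3% with a minimum of 3 reads. At 10 reads it was 4.88%, in the window from 4581438, since the left windows then held under 50 sites. The lowest stood at 0.672% and 1.40% at those minimums. The share of methylated sites with another one nearby was 44.6% within 50 bp, 67.5% within 200 bp, 27.8% at 3 reads and 30%, and 60.3% and 37.2% at minimums of 3 and 10 reads, against 26.6%, 56.8%, 15.4%, 42.8% and 20.6% of all sites. The difference by CHG class was 2.42 points within 50 bp and 2.41 at 10 reads, against 2.21 and 2.01 by CG class. CAC differed from other sites by -2.32 points at 10 reads. CAAG exceeded CATG by 4.45 points without cytosines at 50% or more and by 4.62 on the forward strand. The cause was otherwise not tested. The strand difference was -0.45 with all listed cytosines. Single sites were shallow, so levels of single sites are uncertain. No paired analysis was possible because 1 library was analysed.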

Other observations

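The level of sites followed by A was also split by the base before the cytosine, which the map states for only part of them. It was 4.74% (Wilson 95% interval 3.90 to 5.75, 254 sites) after T, 4.31% (3.96 to 4.69, 1436 sites) after C, 3.80% (3.13 to 4.60, 325 sites) after A and 2.60% (2.28 to 2.96, 995 sites) after G. Where that base was not stated, 2584 sites stood at 2.69%. Without sites at 50% or more the values were 4.27% after T, 3.17% after C, 3.00% after A and 2.17% after G. The sites whose base is stated depend on which neighbouring cytosines were listed.

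By depth, CHH sites followed by A stood at 3.08% for 5 to 9 reads, 3.35% for 10 to 19 and 4.71% (3.79 to 5.84, 72 sites) for 20 or more. Of the 78 methylated reads in this deepest class, 20 came from the site at 4583085 and 17 from that at 4328532. Its higher level therefore rested largely on these sites. Other CHH cytosines stood at 1.40%, 1.33% and 1.76% in the same classes.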
